A study of Mus musculus with 6 samples.

Results

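The Mgat genes encode the N-acetylglucosaminyltransferases of the Golgi that build the branches of N-glycans, the sugar trees carried on asparagines of membrane and secreted proteins. 6 members, Mgat1, Mgat2, Mgat3, Mgat4a, Mgat4b and Mgat5, were found by symbol among the 32285 genes counted, 1 entry each, and were followed over 12 immune cell classes and a small class of keratin-positive cells. As background, Mgat1 adds the first GlcNAc to the trimmed mannose core and so opens the way to hybrid and complex N-glycans, Mgat2 adds the second and completes the biantennary core, Mgat4a and Mgat4b add a further branch to the mannose arm begun by Mgat1, and Mgat5 adds the β1,6-linked branch. Mgat3 adds the bisecting GlcNAc, which hinders later branching. The β1,6 branch is commonly extended with poly-N-acetyllactosamine, which galectins such as galectin-3 bind. In T cells, branching by Mgat5 is known to restrain signalling through the T cell receptor.

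The libraries came from 6 mice, 1 each for control, anti-PD-L1, 2DG and 2FF, and 1 for each of the drugs given together with the antibody (2DG with anti-PD-L1, 2FF with anti-PD-L1). According to the methods of the study, KPCA ovarian cancer cells (HR-proficient, with Trp53 -/-R172H, Ccne1 OE and Akt2 OE among their alterations) had been placed in 1 ovarian bursa of female C57BL/6 mice of 6 to 8 weeks, and all mice, the control included, carried such a tumor until day 30. 2DG (2-deoxy-D-glucose, used in the study to inhibit branched N-glycans and also an inhibitor of glycolysis) was injected every 2 days from day 9, 2FF (a fluorinated fucose analog that blocks fucosylation, named 2F-Peracetyl-Fucose in the labels) was given orally every 2 days to mice whose tumor cells had been held in 2FF for 3 days, anti-PD-L1 antibody was injected after day 9, and the control received solvent and rat IgG. The tumors came from 1 cell line, and 1 mouse per treatment leaves treatment and mouse indistinguishable. Lymph node is the tissue named in the labels, and young and aged mice are mentioned in the series text. The 6 lymph node stroma genes (Ccl21a, Ccl19, Cxcl13, Glycam1, Madcam1 and Chst4) summed to 0.0415 to 8.05 CPM per library (CPM, the UMIs of a gene as a share of all UMIs, scaled up). The 4 keratins summed to 1.83 to 41.6 CPM and 6 fibroblast genes to 2.64 to 24.0 CPM. Stroma and tumor genes were thus all scarce, so these sums cannot tell lymph node from tumor.

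Between 61859753 and 73885214 UMIs (unique molecules counted) were deposited per library, and 51633 cells with at least 250 genes and at most 5% mitochondrial UMIs were kept. A cell joined the class whose markers it held most of, with 3 or more needed and ties left out. This placed 42535 cells in the 12 classes compared and left 2260 tied and 6528 below the limit. The control library stood apart. Neutrophils were 36.2% of its kept cells against 2.85% to 5.31% elsewhere, CD8 T cells numbered 116, and its 21 NK cells were too few for the sums of at least 30 cells that were tested, so NK cells are given over 5 libraries. Pairs of libraries shared 16 to 34 barcodes, at most 0.345% of the smaller library.

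Mgat5 lies at chr1:127205015-127488336 on the plus strand of GRCm38, and 96.4% of its length is intronic. Mgat4a (chr1:37439340-37541016, minus strand), Mgat4b (chr11:50210890-50235103, plus), Mgat3 (chr15:80173721-80215519, plus) and Mgat1 (chr11:49244191-49263030, plus) are 87.3%, 88.8%, 88.8% and 74.9% intronic. Mgat2 (chr12:69184157-69186770, plus) holds no intron in this annotation. All are protein-coding genes, and Mgat5 is overlapped by another gene, Tmem163, on the opposite strand. Cell Ranger 7 counts intronic reads by default and version 3 does not, the file headers and the submitters' notes name different versions, and the share of intronic reads behind these counts was not tested. Levels are CPM of summed UMIs, 1 value per class and library, compared between classes and not between genes.

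To determine in which cells each enzyme was transcribed, the level in each class was compared with the mean of the other 11 classes (edgeR quasi-likelihood test with the mouse as a block, Benjamini-Hochberg adjustment over 12378 genes). Each enzyme had its own distribution. Mgat5 was highest in NK cells, Mgat4a in macrophages and B cells, Mgat4b in conventional type 1 dendritic cells (cDC1), Mgat2 in macrophages, Mgat1 in macrophages and B cells, and Mgat3, barely detected, in CD4 T cells among these classes. Mgat3 did not pass the filter on low counts, and 47 of the 60 contrasts of the other 5 members passed an adjusted p of 0.05, 25 higher and 22 lower. Over all genes 62.8% of class contrasts passed, 32.5% higher and 30.3% lower, so that a call by itself does not set the members apart. The median size of a member's contrast was 0.563 on the log2 scale against 0.508 over all genes. By class, all 5 members were higher in macrophages, where 39.4% of genes were. In monocytes 4 were higher and 0 lower (72.9% of genes passed either way), in neutrophils 3 were higher and 1 lower (74.1% either way, 35.7% higher), and in cDC2 3 were higher and 1 lower (32.7% and 25.9%). B cells had 2 higher and 2 lower (60.9% either way, 30.6% lower), mature dendritic cells 2 higher and 3 lower (61.3% either way, 30.2% and 31.1%) and NK cells 2 higher and 0 lower (25.5% and 29.2%). CD4 T cells had 0 higher and 4 lower (58.5% either way, 30.2% and 28.3%), and other T cells 1 higher and 4 lower (55.9% either way). Since the replicates are mice under 6 treatments, the spread behind these tests holds both mouse and treatment. Where libraries of classes are said below not to overlap, the share of all genes with such a separation was not counted. Such separations therefore do not set a member apart.

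**Figure D1:**
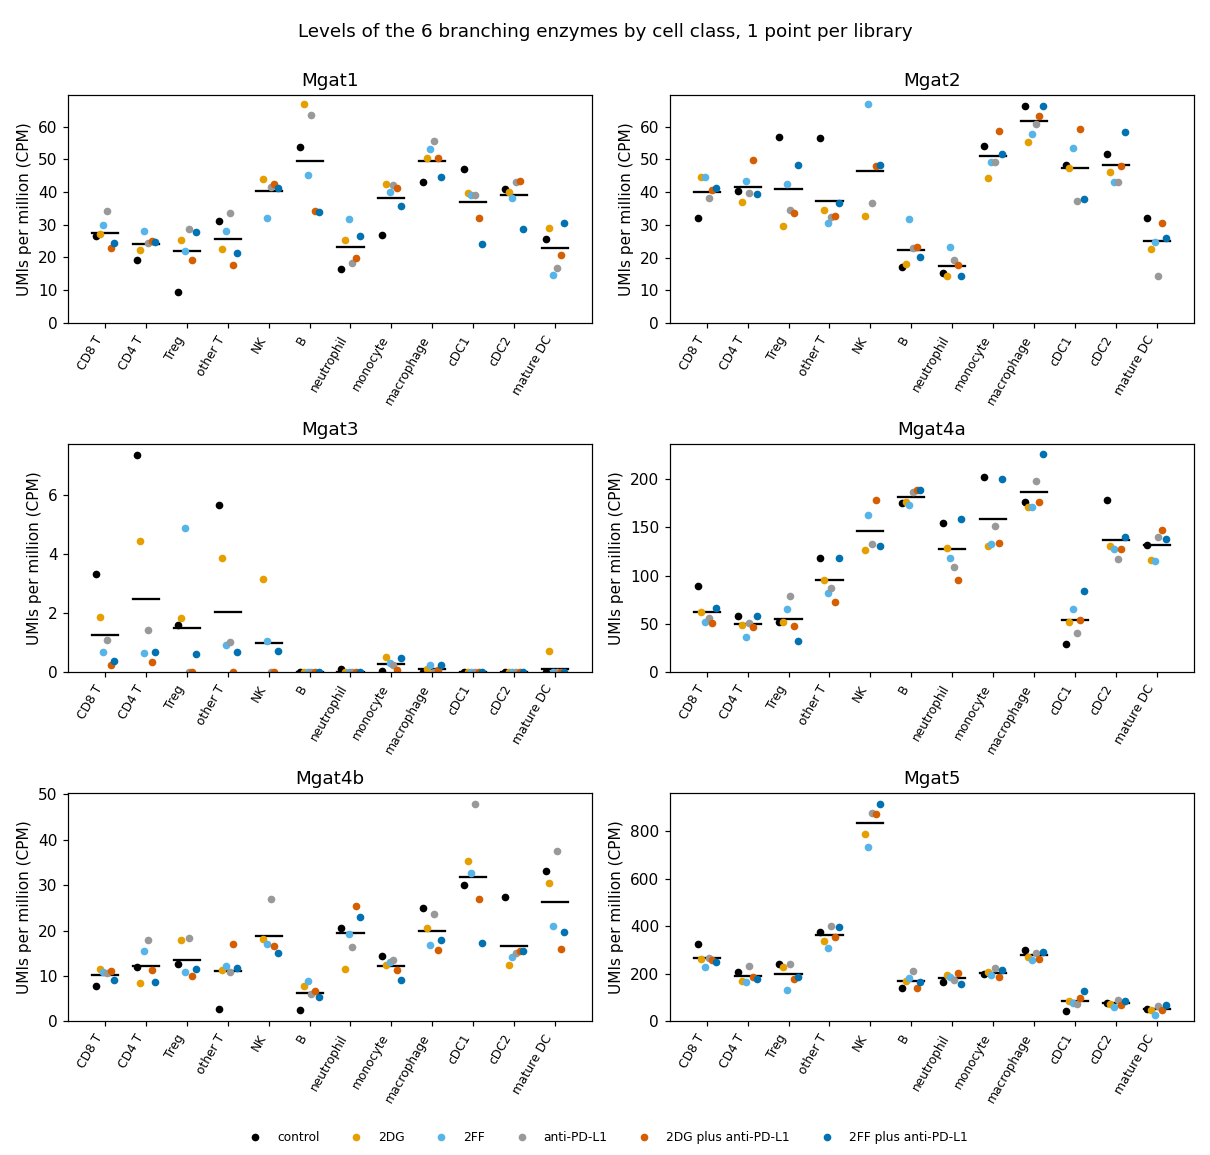
Level of each Mgat gene by cell class, in CPM with a scale of its own for each gene. Each point is 1 library (1 mouse), the bar marks the mean over libraries, and NK cells of the control are left out; Mgat5 in NK cells lies between 733 and 915 CPM, above every library of every other class.

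Mgat1, the gate to complex N-glycans, varied least. Its mean was 49.6 CPM in both B cells (SD 14.2) and macrophages (SD 4.88, n = 6) and 22.0 ± 7.11 CPM in regulatory T cells (Treg), a range of 2.25-fold. Macrophages were the steadiest high class, with a lowest library of 43.1, a median of 50.4 and a highest of 55.7 CPM, whereas B cells ran from 34.0 to 66.8 CPM. Macrophages (log2 difference 0.74, SE 0.0858, adjusted p = 1.54e-11), B cells (0.57), monocytes (0.48) and cDC2, the conventional type 2 dendritic cells (0.36), were higher, and Treg (-0.70), CD4 T (-0.65), other T (-0.63), CD8 T (-0.39) and mature dendritic cells (-0.37) were lower. The 4 T cell classes were thus all on the low side. NK cells (0.27, adjusted p = 0.0631), cDC1 (0.23, adjusted p = 0.0853) and neutrophils (0.10, adjusted p = 0.489) did not pass.

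Mgat2, which completes the biantennary core, was highest in macrophages (mean 61.6 ± 4.55 CPM, libraries from 55.2 to 66.3) and next in monocytes (51.2 ± 4.96, from 44.2 to 58.7). B cells held 22.2 ± 5.33 CPM and neutrophils 17.4 ± 3.54 CPM, 3.54-fold below macrophages, and no library of either reached the lowest macrophage library. In the fit macrophages (0.81, SE 0.0708, adjusted p = 3.9e-16), monocytes (0.69), cDC2 (0.44) and cDC1 (0.30) were higher and B cells (-0.80, SE 0.113, adjusted p = 9.32e-09), neutrophils (-0.63), mature dendritic cells (-0.51) and other T cells (-0.34) were lower. B cells therefore stood at opposite ends for the first 2 enzymes of the pathway, high in Mgat1 and low in Mgat2. CD8 T, CD4 T, Treg and NK cells lay between -0.13 and 0.21 and did not pass.

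Mgat3, the enzyme of the bisecting GlcNAc, was barely detected, with 162 UMIs over the 12 classes. CD4 T cells held 38 of them, CD8 T cells 52, other T cells 17, Treg 11 and NK cells 7, and monocytes held 25, macrophages 9, neutrophils 2 and mature dendritic cells 1. Not 1 UMI was found among 28665112 in B cells, cDC1 and cDC2 together, which allows up to 0.105 CPM by the limit of 3 counts. Fitted without the filter on low counts, Mgat3 was higher in CD4 T (adjusted p = 4.24e-07), other T (0.000194), CD8 T (6.3e-05), Treg (0.00417) and NK cells (0.0204), and 0 of the other 7 contrasts passed. Of those 7, B cells, cDC1 and cDC2, without a UMI, could not have passed (SE 3060000 to 3750000). The contrasts that passed were set against means that include these empty classes. The 4 T cell classes together held 4.69 CPM in the control (14 UMIs), 2.72 in 2DG (55 UMIs), 0.870 in 2FF (18), 1.03 in anti-PD-L1 (19), 0.216 in 2DG with anti-PD-L1 (4) and 0.480 in 2FF with anti-PD-L1 (8). The control and 2DG libraries were the highest and their 95% Poisson intervals, 2.56 to 7.87 and 2.05 to 3.54 CPM, lay above those of the other 4, the highest of which reached 1.61. No replicate stands behind any of these values.

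Mgat4a and Mgat4b, which add the same branch, had unlike distributions. Mgat4a passed the test in all 12 classes. Macrophages (mean 187 ± 21.8 CPM, libraries from 171 to 226) and B cells (181.5 ± 7.35, from 173 to 189) were highest, followed by monocytes (159 ± 33.8), and the low end was formed by CD4 T cells (49.9 ± 8.41), cDC1 (54.1 ± 19.0), Treg (54.9 ± 15.8) and CD8 T cells (62.7 ± 14.4). Macrophages (0.96, SE 0.0959, adjusted p = 9.37e-14), neutrophils (0.94), monocytes (0.87), B (0.85), mature dendritic (0.53), NK (0.48) and cDC2 (0.47) were higher, and CD4 T (-1.39, SE 0.127, adjusted p = 8.04e-15), Treg (-1.20), cDC1 (-1.12), CD8 T and other T cells (-0.40) were lower. The lymphocytes were therefore split, with B and NK cells on the high side and all T cell classes on the low side. Among dendritic cells, cDC1 lay below cDC2 and mature cells, whose lowest libraries, 118 and 115 CPM, exceeded the highest cDC1 library of 83.7.

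For Mgat4b, cDC1 had the highest mean of these dendritic classes rather than the lowest. Their lead over mature cells was 0.23 on the log2 scale, in 4 of 6 mice, so that order is not shown. cDC1 held 31.7 ± 10.1 CPM (libraries from 17.2 to 47.9) and mature dendritic cells 26.3 ± 8.52 (from 16.0 to 37.4). cDC2 held 16.7 ± 5.40 CPM and were not called (0.10). B cells held 6.22 ± 2.23 CPM (from 2.44 to 8.93), 5.11-fold below cDC1. Called higher were cDC1 (1.09, SE 0.139, adjusted p = 4.97e-10), mature dendritic cells (1.02), neutrophils (0.97) and macrophages (0.40), and lower were B (-1.32, SE 0.206, adjusted p = 9.22e-08), CD8 T (-0.74), CD4 T (-0.61) and other T cells (-0.60). With 59 UMIs in B cells over all libraries, 1 of them in the control, this is also among the thinnest of the tested values. Over the 12 class means of log2(CPM + 5), which share libraries, Mgat4a and Mgat4b had a Pearson r of -0.0646. The highest r between any 2 of the 5 tested members was 0.598, for Mgat1 and Mgat4a, and the lowest -0.36, for Mgat4b and Mgat5.

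Mgat5, the β1,6-branching enzyme on which the study centres, had the widest range of the 5 tested members, 16.2-fold between class means. In NK cells it stood at 788 CPM in 2DG, 733 in 2FF, 875 in anti-PD-L1, 873 in 2DG with anti-PD-L1 and 915 in 2FF with anti-PD-L1. The 21 NK cells of the control, which entered no test, gave 682 CPM (95% Poisson interval 557 to 825). Every one of these lies above the highest library of any other class, 403 CPM in other T cells. How many of all genes have a class apart in this way was not counted, so the separation does not by itself set Mgat5 apart. The NK contrast was 2.26 on the log2 scale (SE 0.0759, adjusted p = 4.74e-36). T cell markers summed to 171 to 282 CPM in the NK class against 3146 to 4138 CPM in CD8 T cells. As cells were gated on these markers, nothing is read from that difference.

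Below NK cells came other T cells (364 ± 36.0 CPM, log2 difference 0.80), macrophages (279.6 ± 16.9, 0.68) and CD8 T cells (265.5 ± 32.9, 0.39). The dendritic cells formed the low end, with cDC1 at 84.6 ± 27.6 CPM (-1.33), cDC2 at 76.8 ± 10.2 (-1.36) and mature dendritic cells at 51.7 ± 15.8 (-1.88, SE 0.114, adjusted p = 5.03e-23). Their highest single library, 127 CPM in cDC1 of 2FF with anti-PD-L1, was below the lowest of all other classes, 131 CPM in Treg of 2FF. Keratin UMIs summed to 401 CPM in those cDC1 and to as much as 268 CPM in a Treg library. With cells holding markers of another lineage left out, those cDC1 were at 69.6 CPM and the highest cDC1 library at 103. Macrophages and dendritic cells counted as the same lineage, so cDC1 with macrophage markers were not removed. In the library at 103 CPM, 2DG with anti-PD-L1, macrophage markers still summed to 640 CPM, against 26.3 to 361 in the others. Their part in the Mgat5 level was not tested. Under the same gate the Treg ratio of 2FF over control moved from -0.86 to -1.34, so the separation is given for the main gate only. A Mgat5 UMI was found in 25.7% of 641 mature dendritic cells and 91.8% of 1288 NK cells, whose median cells held 8426 to 9683.5 and 4743 to 7603 UMIs. Monocytes (0.36), neutrophils (0.56) and CD4 T cells (-0.20, adjusted p = 0.0398) also passed. Treg (-0.09) and B cells (-0.19, adjusted p = 0.0634) did not.

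A part of these calls rests on the scaling. Libraries were scaled by TMM, which assumes that most genes do not differ. Without it, scaled by total UMIs alone, the median of all genes shifted by -0.633 in the neutrophil contrast, by -0.2 in monocytes, by -0.159 in mature dendritic cells, by 0.107 in NK cells and by 0.162 to 0.242 in the 4 T cell classes. Under totals alone Mgat5 became -0.036 in neutrophils and 0.023 in CD4 T cells, so that it has no settled direction in either, and Mgat5 in monocytes (0.15), Mgat4a in other T cells (-0.15) and Mgat2 in other T cells (-0.10) no longer passed, while Mgat1 in neutrophils became lower (-0.52, adjusted p = 0.000203). The remaining 42 calls were made in the same direction under both scalings. Of the members' calls 53.2% were higher with TMM and 55.3% without it.

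**Figure D2:**
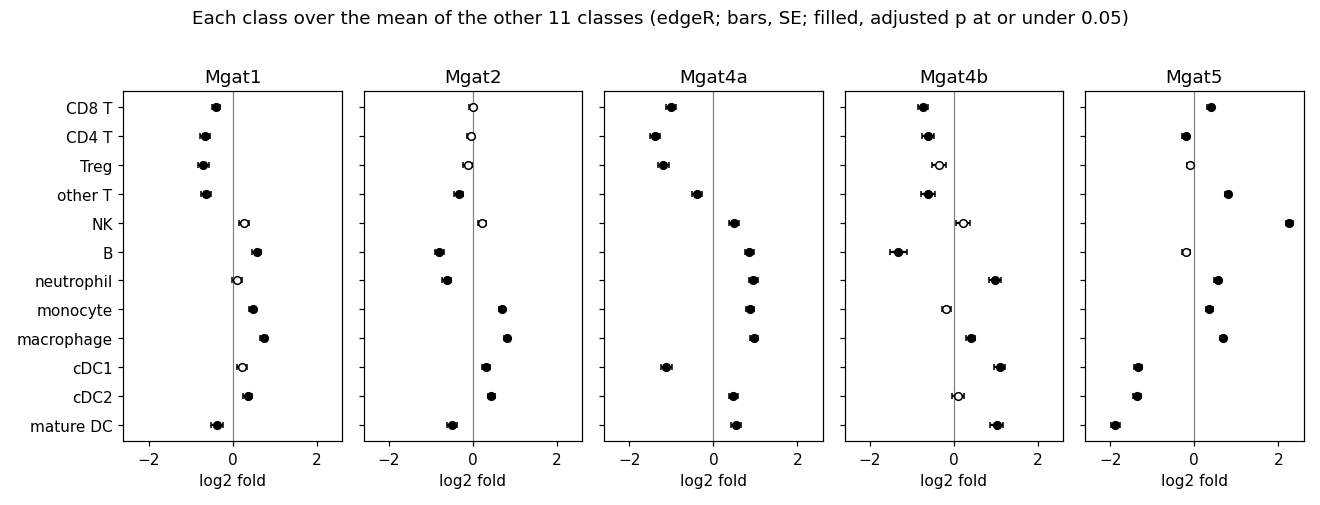
Log2 difference of each of the 5 tested Mgat genes between a cell class and the mean of the other 11 classes, with TMM scaling. Points are fitted values, whiskers 1 standard error on each side, and filled points have an adjusted p of at most 0.05; the NK value of Mgat5, 2.26, lies farthest from 0.

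Neighbours in the order of levels were compared within mice by a two-sided exact paired permutation test of log2(CPM + 5). It cannot go below 0.03125 with 6 mice or 0.0625 with 5. None of the 66 neighbouring pairs passed after adjustment over all (smallest adjusted p = 0.1875, 11 at an unadjusted p of 0.05 or less). With these limits a pair of 6 mice could pass only if most pairs stood at the limit, and a pair of 5 mice never. Adjacent ranks are therefore not shown to differ, and the adjusted test cannot decide whether they do. 12 pairs kept 1 order in every library. For Mgat5 these were NK over other T cells (log2 difference 1.21, higher in 5 of 5 mice, exact permutation p = 0.0625), other T cells over macrophages (0.37), CD8 T cells over monocytes (0.36), B cells over cDC1 (0.998) and cDC2 over mature dendritic cells (0.58), each of the last 4 in 6 of 6 mice. For Mgat4a they were neutrophils over other T cells (0.39) and other T over CD8 T cells (0.58). Mgat2 kept macrophages over monocytes (0.25), other T cells over mature dendritic cells (0.50) and B cells over neutrophils (0.27), and Mgat4b kept mature dendritic cells over macrophages (0.30) and CD8 T over B cells (0.46). Pairs were ordered by these same levels. The share of neighbouring pairs of all genes that keep 1 order was not counted, so the 12 pairs do not set the members apart.

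The genes before and after the branching step were examined next, from lists chosen with earlier results of these data known. The 5 Golgi mannosidases trim the core on which the Mgat enzymes act, Man1a, Man1a2 and Man1c1 before Mgat1 and Man2a1 and Man2a2 after it, and 52 of their 60 class contrasts passed (86.7%, 25 higher and 27 lower). All 5 were lower in mature dendritic cells, with Man2a2 at -2.51 and Man1c1 at -1.70, where 31.1% of all genes were lower. The members were split there, with Mgat1, Mgat2 and Mgat5 lower and Mgat4a (0.53) and Mgat4b (1.02) higher. In macrophages Man1c1 (2.27), Man2a2 (1.60) and Man2a1 (1.08) were higher, beside higher Mgat1, Mgat2, Mgat4a, Mgat4b and Mgat5, and Man1a (-0.37) and Man1a2 (-0.34) were lower. B cells had Man1a at 2.75, the largest mannosidase difference of any class.

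Of the 6 genes that supply UDP-GlcNAc, the donor of every Mgat reaction, 46 of 72 contrasts passed (63.9%, 19 higher and 27 lower), near the 62.8% of all genes. Mature dendritic cells had the lowest Mgat5 of the tested classes. They had the highest values of Uap1 (3.42), which makes UDP-GlcNAc, and of Gfpt1 (2.08), the entry enzyme of the hexosamine pathway. Slc35a3 (1.01), a Golgi nucleotide sugar transporter, was highest there too. In B cells Gfpt1 (-1.05), Uap1 (-1.06), Slc35a3 (-0.50) and Nagk (-0.66) were lower. In NK cells, where Mgat5 was highest, Uap1 was lower (-1.03) and Gnpnat1 (0.67) and Slc35a3 (0.38) were higher. Thus the class order of the donor genes was not that of Mgat5.

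Genes that extend or cap the branches passed in 49 of 60 contrasts (81.7%, 27 higher and 22 lower; B4galt2 did not pass the filter). St6gal1, the α2,6-sialyltransferase of N-glycans, was higher in B cells (3.68) and lower in NK (-4.25) and CD8 T cells (-2.37). B4galt1, which adds galactose, was highest in NK cells (0.99) and lowest in cDC1 (-1.19), and B3gnt2, which extends poly-N-acetyllactosamine, was higher in all 4 T cell classes, NK cells, B cells and neutrophils and lower in the 5 remaining classes. Lgals3, encoding galectin-3, was lower in all 6 lymphocyte classes (-1.92 in NK cells to -1.06 in CD8 T cells) and higher in monocytes (2.56), macrophages (1.88), cDC1 (1.58), neutrophils (1.56) and cDC2 (1.35). Brca1 and Brca2 are DNA repair genes that the study examined as regulators of Mgat5 in cancer cell lines and tumors, not in immune cells. They passed in 16 of 24 contrasts (66.7%, also near that of all genes), both higher in all 4 T cell classes and in cDC1. Neither passed in NK cells (0.40 and -0.12), where Mgat5 was highest. The 6 cell cycle genes used below were all higher in CD8 T, CD4 T, Treg and cDC1. In other T cells 4 were higher, and in macrophages 2 were higher and 3 lower. The other Mgat genes measured, Mgat4c, Mgat4d, Mgat4e and Mgat5b, passed the filter nowhere, and none of them exceeded 1.58 CPM in a library of any of the 12 classes.

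Within CD8 T cells, Mgat5 and Mgat4a differed between states, and the other tested members did so in 1 contrast or in none. Cells with a Havcr2 UMI (Havcr2 encodes Tim-3, an inhibitory receptor of exhausted T cells) were compared with cells with a Tcf7 UMI and no Havcr2 UMI (Tcf7 encodes TCF-1, a factor of naive, memory and stem-like T cells). The control held 19 cells of the latter kind, so 5 mice were compared. Mgat5 in the Tcf7 cells was 371.5 CPM in 2DG, 298 in 2FF, 418.5 in anti-PD-L1, 382 in 2DG with anti-PD-L1 and 342 in 2FF with anti-PD-L1, and in the Havcr2 cells 226, 212.5, 233, 237 and 233 CPM in the same order. Mgat5 fell in the Havcr2 cells of 5 of 5 mice (log2 difference -0.72, SE 0.0702, adjusted p = 6.68e-08), and the sets did not overlap. The share of all genes without overlap between these sets was not counted, so this does not set Mgat5 apart. Mgat4a fell as well (-0.73, SE 0.117, adjusted p = 8.43e-05), from 85.2, 59.96, 104, 65.8 and 109.6 CPM in the Tcf7 cells to 53.6, 52.4, 46.4, 48.8 and 62.4 CPM in the Havcr2 cells, in the order 2DG, 2FF, anti-PD-L1, 2DG with anti-PD-L1 and 2FF with anti-PD-L1. Its smallest difference was in 2FF.

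In this contrast 33.6% of 10678 genes passed, 17.0% higher and 16.6% lower, and 2 of the 5 members tested, both lower. Mgat2 (0.32, adjusted p = 0.0576), Mgat1 (0.33, adjusted p = 0.111) and Mgat4b (0.27, adjusted p = 0.401) did not pass. Mgat2 passed at the same sign when libraries were scaled by totals alone (0.38, adjusted p = 0.0266). The gate reads single UMIs, and the Havcr2 cells were deeper (median 6780.5 to 9017 UMIs against 5272 to 6851), whose part in the result was not tested. Of the 6 cell cycle genes, Birc5, Ccnb2 and Cdk1 were higher in the Havcr2 cells. Among non-cycling cells, Mgat5 (-0.60, adjusted p = 2.31e-07) and Mgat4a (-0.74, adjusted p = 2.08e-05) were also lower, and Mgat2 was higher (0.41, adjusted p = 0.0315). These sets still differed in a cell cycle gene, with Top2a higher in the Havcr2 cells (0.47, adjusted p = 0.00436). Mki67 was not called (0.48, adjusted p = 0.0941).

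Around them, the mannosidases Man2a2 (-0.98), Man1c1 (-0.75) and Man1a (-0.48) fell in the Havcr2 cells, as did the extending and capping enzymes B4galt1 (-0.88), B3gnt2 (-0.60) and St6gal1 (-3.33, adjusted p = 5.93e-11). Of the 6 donor genes, Gfpt1 (0.49), Uap1 (0.39) and Slc35a3 (0.38) were higher, 0 were lower and the other 3 did not pass. Among non-cycling cells Gfpt1 remained called (0.54), and Uap1 (0.29, adjusted p = 0.104) and Slc35a3 (0.38, adjusted p = 0.065) did not. Lgals3 was higher (0.98, adjusted p = 0.042), and so was Brca2 (0.79, adjusted p = 0.0148), whereas Brca1 was not called (0.52, adjusted p = 0.156). Among non-cycling cells Lgals3 was higher (1.10, adjusted p = 0.0211) and Brca2 was no longer called (0.56, adjusted p = 0.294).

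**Figure D3:**
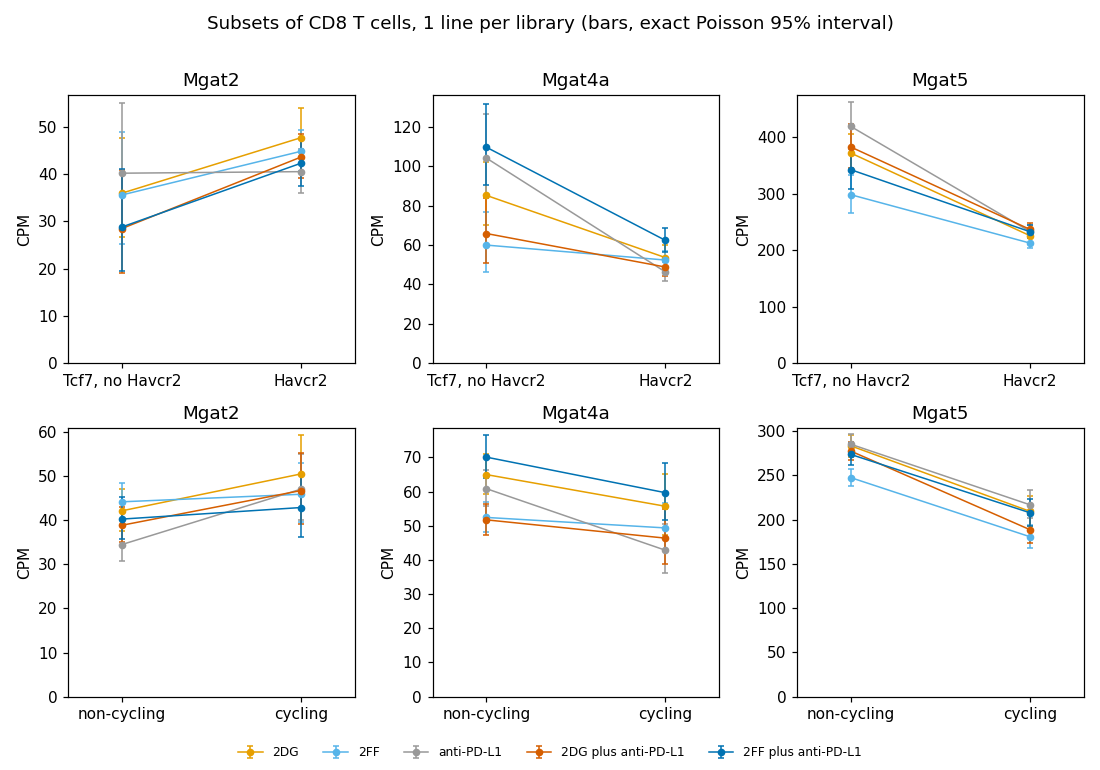
Mgat gene levels in CD8 T cell states, in CPM, with each library joined by a line between the 2 states compared. In every library compared, Mgat5 is lower in cells with a Havcr2 UMI than in cells with Tcf7 and no Havcr2, and lower in cycling than in non-cycling cells.

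Cycling CD8 T cells, those with UMIs of at least 2 of 6 cell cycle genes, were compared with the other CD8 T cells in the same 5 mice (13 cycling cells in the control). Mgat5 was lower in every mouse, 209, 181, 217, 189 and 208 CPM in cycling cells against 283, 247, 285, 277 and 273.5 in non-cycling cells of 2DG, 2FF, anti-PD-L1, 2DG with anti-PD-L1 and 2FF with anti-PD-L1 (log2 difference -0.47, SE 0.0431, adjusted p = 3.86e-08). Mgat4a was also lower (-0.26, adjusted p = 0.00525), and Mgat1 (0.23, adjusted p = 0.0399) and Mgat2 (0.20, adjusted p = 0.0352) were higher. Thus 4 of 5 members passed, beside 49.0% of 11583 genes (26.1% higher, 22.9% lower), and with 5 members nothing is read from that share. The Mgat1 and Mgat2 calls were lost under DESeq2 and when 2DG, anti-PD-L1 or 2DG with anti-PD-L1 was left out, and the Mgat1 call also without 2FF with anti-PD-L1. Cycling cells were deeper (median 9730 to 12088 UMIs against 5691 to 7551), and the part of depth was not tested. Brca1 (3.82) and Brca2 (2.37) were higher in cycling cells. As these cells were gated on cell cycle genes, nothing is read from this about Mgat5.

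Macrophages with and without a UMI of Gpnmb, a gene of lipid-handling and tumor-associated macrophages, were compared in the 3 libraries with at least 20 such cells (control, 2FF and 2FF with anti-PD-L1). This split was added after the planned one, by Spp1 and Gpnmb, left too few cells. Of the 5 members 0 passed by edgeR's quasi-likelihood test or by DESeq2, and 0 at an unadjusted p under 0.05, beside 4.03% of 11303 genes (2.76% higher, 1.27% lower). Mgat2 had the largest difference (-0.38, SE 0.25). Lgals3 was higher in the Gpnmb cells (1.36).

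Treatments were compared by ratios between libraries, with no test, for the 7 comparisons that the design implies. A member in a class was counted as past the fold at 1.5-fold or more on the scale of CPM + 5, given at least 50 UMIs in the 2 libraries. Over control, 8 of 52 were past the fold in 2DG (15.4%, against 16.5% of all genes), 11 of 50 in 2FF (22.0% against 20.8%) and 8 of 50 in anti-PD-L1 (16.0% against 17.4%). Those 3 comparisons share the control library. Over anti-PD-L1 alone, 7 of 53 were past the fold in 2DG with anti-PD-L1 (13.2% against 10.2%) and 9 of 55 in 2FF with anti-PD-L1 (16.4% against 8.01%). Anti-PD-L1 added to 2DG gave 3 of 57 (5.26% against 10.2%) and added to 2FF 7 of 53 (13.2% against 7.61%). Over control the members' share was near that of all genes under the main setting. For 2FF over control it was 31.8% against 22.4% without cells holding a second lineage and 29.0% against 17.4% with no minimum of UMIs. With a lead of 2 markers required it was 17.4% against 21.6%. The higher share in 2FF with anti-PD-L1 changed with the gate: with a lead of 2 markers required it was 8.33% against 7.29% over anti-PD-L1 and 6.52% against 6.96% over 2FF, and without cells holding a second lineage 11.5% against 8.03% and 6.25% against 7.38%.

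**Figure D4:**
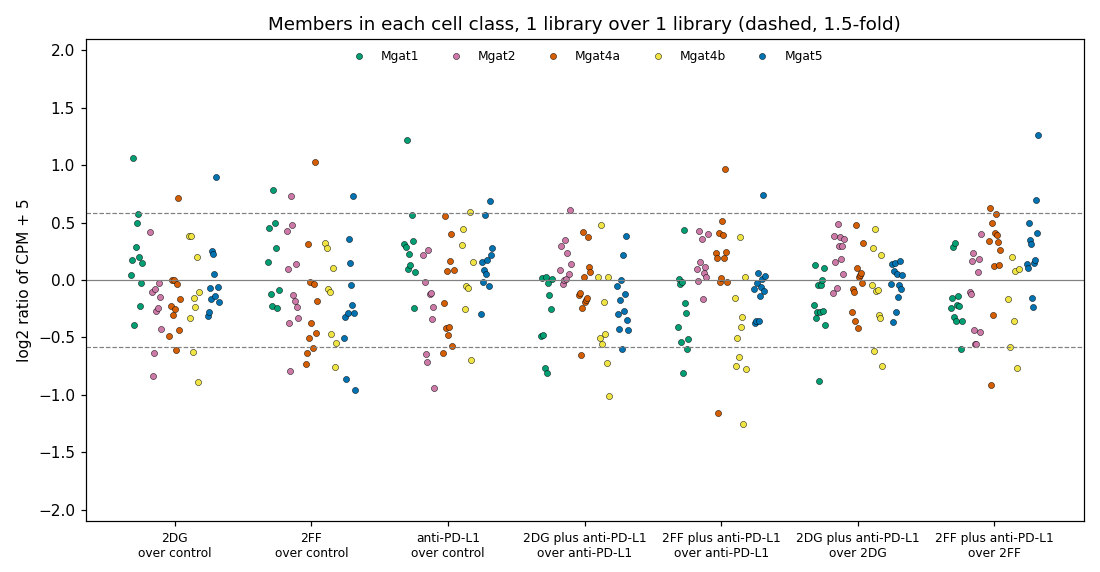
Log2 ratio of CPM + 5 of Mgat1, Mgat2, Mgat4a, Mgat4b and Mgat5 between 2 libraries, by comparison. Each point is 1 gene in 1 cell class for 1 pair of libraries, and the classes are not marked. Dashed lines mark 1.5-fold in either direction, and there is no replicate. Most Mgat5 points lie within the lines.

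Mgat5 varied little between libraries in several classes. In monocytes and macrophages no comparison was past the fold, with libraries from 186 to 226 and from 258 to 301 CPM. In NK cells no comparison without the control was past it either, with libraries from 733 to 915 CPM. The NK cells of the control were too few to be compared, and their value, given above, lay below that range. CD8 T cells held 327 CPM in the control (95% Poisson interval 291 to 367, 116 cells) and 262, 229, 266, 256.5 and 252 CPM in 2DG, 2FF, anti-PD-L1, 2DG with anti-PD-L1 and 2FF with anti-PD-L1. The control was the highest and the 5 treated libraries lay close together, with none past the fold. In Treg, Mgat5 was lower in 2FF than in the control (131 against 243 CPM, log2 ratio -0.86). In mature dendritic cells 2FF was the lowest library, at 25.5 CPM (28 UMIs) against 54.2 in the control and 68.5 in 2FF with anti-PD-L1 (45 UMIs).

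Mgat4a gave the best-counted differences. Control monocytes held 202 CPM, 2FF with anti-PD-L1 200.1, anti-PD-L1 151, 2DG with anti-PD-L1 134, 2FF 133 and 2DG 131, so that 2 libraries were high and 4 low, and 2DG (log2 ratio -0.61, 95% counting interval of the CPM ratio -0.71 to -0.54) and 2FF (-0.59) were past the fold below the control. In CD8 T cells the control was again highest, at 89.2 CPM against 51.6 in 2FF and 55.8 in anti-PD-L1 (-0.74 and -0.63). In Treg the highest library was anti-PD-L1 at 78.8 CPM, and the lowest 2FF with anti-PD-L1 at 32.6 CPM (-1.16, interval -1.75 to -0.81). Mgat4a in B cells spanned only 173 to 189 CPM over all 6 libraries.

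In B cells Mgat1, Mgat2 and Mgat5 each had a ratio past the fold. In the comparisons named here, from 9.15% (2FF with anti-PD-L1 over anti-PD-L1) to 26.9% (2FF over control) of genes in B cells were past it either way. Mgat2 was at 31.8 CPM in 2FF against 17.1 in the control (0.74), and Mgat5 at 139 CPM in 2DG with anti-PD-L1 against 212 in anti-PD-L1 (-0.60). By the mean of single-cell CPM the Mgat2 ratio was -0.55, so its direction is not settled. Mgat2 had 207 UMIs in B cells over all libraries. Mgat1 stood at 53.7, 66.8, 45.2 and 63.6 CPM in control, 2DG, 2FF and anti-PD-L1, and at 34.1 and 34.0 CPM in 2DG with anti-PD-L1 and 2FF with anti-PD-L1. Both combinations were below all 4 other libraries and past the fold below anti-PD-L1 (-0.81 each). These 2 comparisons share the anti-PD-L1 library, and the share of all genes with this order of libraries was not counted. Mgat1 in control Treg, 9.47 CPM, rested on 6 UMIs (interval 3.47 to 20.6).

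Each agent could also be read in pairs that share no library. For anti-PD-L1, in 3 pairs, 0 of 46 members in a class were past the fold the same way in every pair (by class 0.0786% of genes in CD8 T cells to 0.784% in cDC2 were, 0.183% in CD4 T cells), and for 2DG, in 2 pairs, 0 of 46 (0.473% of genes in CD8 T cells to 4.87% in neutrophils). For 2FF 2 of 48 were, both in cDC1, where 3.45% of genes were past it in both pairs. Mgat4a was at 65.5 CPM in 2FF against 29.5 in the control and at 83.7 in 2FF with anti-PD-L1 against 40.5 in anti-PD-L1 (1.03 and 0.96), and Mgat5 at 76.7 against 44.3 and at 127 against 74.2 CPM (0.73 and 0.74). The cDC1 of 2FF with anti-PD-L1, 48 cells, also held 401 CPM of summed keratin UMIs, against 2.70 to 38.8 CPM in the other libraries. With cells that held markers of another lineage left out, 43 cells with no keratin UMI remained, and Mgat4a (38.7 against 45.4 CPM, log2 ratio -0.21) and Mgat5 (69.6 against 77.6 CPM, -0.15) were no longer higher than in anti-PD-L1. The control was the lowest library for both genes, and 2DG (0.71 for Mgat4a, 0.90 for Mgat5) and, for Mgat5, anti-PD-L1 (0.68) were past the fold over it as well as 2FF. The Mgat4a ratio of 2DG was 0.26 with a gate lead of 2 markers and 0.27 by single-cell means, neither past the fold.

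Tumor cells were scarce. The keratin gate held 54 cells and 731246 UMIs over all libraries, too few for any test, and the pooled levels carry 95% Poisson intervals that cover counting error only. Mgat5 was at 93.0 CPM (72.2 to 118), near the dendritic cells, Mgat4a at 64.3 (47.2 to 85.5), Mgat2 at 56.1 (40.2 to 76.1), Mgat4b at 26.0 (15.6 to 40.6) and Mgat1 at 21.9 (12.5 to 35.5). From 31.6% (Mgat4b) to 51.1% (Mgat4a) of the UMIs of these genes came from 1 library. In 2DG, 2 cycling cells held 20 of the 47 Mgat4a and 17 of the 68 Mgat5 UMIs. In 2FF with anti-PD-L1, 6 cycling cells held 9 and 20. The pooled levels thus rest largely on few cells. Mgat3 was at 17.8 CPM (9.47 to 30.4) on 13 UMIs, 53.85% of them from 1 library. The highest immune value of this gene was 7.34 CPM, on 8 UMIs, in CD4 T cells of the control. A second gate took keratin-gated or fibroblast-gated cells with at least 5000 UMIs, 2 keratins and no Ptprc UMI. It gave 37 cells with Mgat5 at 109 and Mgat3 at 20.6 CPM, within those intervals. The 2 gates share cells and the second adds cells typed as fibroblasts, so it is no independent check. In 2FF with anti-PD-L1 it held 64 Mgat5 UMIs in 14 cells. The keratin gate held 20 in 6 cycling and 3 in 4 non-cycling cells there.

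Plasmacytoid dendritic cells and plasma cells were also too few to test. Pooled over 137 cells, plasmacytoid dendritic cells held 142 CPM of Mgat1 (122 to 165) and 304 CPM of Mgat5 (274 to 336). Unlike the 3 other dendritic classes, they were not at the low end for Mgat5. The 77 plasma cells held 102 CPM of Mgat1 (86.5 to 120.2) and 22.8 CPM of Mgat5 (15.7 to 32.04). Mgat1 in both was above the mean of every tested class.

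The genes most like each member over the 12 class means of log2(CPM + 5) were found among 10912 genes by Pearson r, a description over classes that share libraries. For Mgat5 these were Gab3 (0.943), Blm (0.939) and Prkab1 (0.92), for Mgat4a Dtnbp1 (0.932), Tec (0.87) and Gadd45g (0.854), and for Mgat4b Rab11a (0.873), Dlgap4 (0.869) and Ap3d1 (0.856). Mgat2 was most like Ywhab (0.973), Glrx2 (0.967) and Tmem208 (0.964), and Mgat1 most like D6Wsu163e (0.896), Arhgap17 (0.894) and Fosb (0.887). The class means of Mgat3 spanned only 0.507 on this scale and were left out.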

How the data were processed

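Unnormalized UMI counts, by gene and by barcode called as a cell, were deposited by the authors, made with Cell Ranger on mm10 (7.0.0 per the file headers and the methods, 3.1.0 in the submitters' notes). They had been prepared with a droplet 3' kit, 1 library per mouse, and 0 value columns were unmapped. Cells with fewer than 250 genes or over 5% mitochondrial UMIs were removed here, as in the study's methods, and named from marker UMIs rather than by clustering, so classes can differ from the study's. T cells were split by Cd8a or Cd8b1, Cd4 and Foxp3 UMIs. No doublet caller was run, and leaving out the deepest 5% of cells, or cells with markers of another lineage, were alternatives. Neutrophils, monocytes, macrophages and dendritic cells counted as the same lineage there, as did T and NK cells, and B and plasma cells. UMIs were summed per class and library (at least 30 cells, 4 or more libraries; 20 cells for states) and fitted over all genes that passed filterByExpr with edgeR 4.0.16 (TMM, robust quasi-likelihood, library as a block, since classes of 1 mouse are paired by it). DESeq2 1.42.0 was an alternative. On simulated counts for the CD8 T contrast with 12378 genes, 34 of 50 changes of 1.5-fold and 49 of 50 of 2-fold were recovered, and 6 of 12178 unchanged genes were called. The simulated classes differed in few genes and shared 1 fixed dispersion, whereas 66.5% of genes passed in the real CD8 T contrast. These counts are therefore not error rates of the real fits. The members, lists and comparisons were chosen with earlier results of these data known. All 6 members, the listed genes with the largest differences and the 3 most alike genes per member are named. Coordinates are from GENCODE M21 on GRCm38. With 1 library per treatment, no test between treatments was made. Intervals are at 95% and cover counting error only.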

Additional observations from a re-analysis of the deposited data

Results flagged for a closer look

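Mgat4b in cDC1 differed in direction under anti-PD-L1. With anti-PD-L1 the log2 ratio of CPM + 5 was 0.59 over the control (47.9 against 30.1 CPM, 71 and 53 UMIs) and -0.77 in 2FF with anti-PD-L1 over 2FF (17.2 against 32.8 CPM, 15 and 41 UMIs), and it was -0.33 in 2DG with anti-PD-L1 over 2DG. Each pair is 1 mouse against 1 mouse, and the difference between the pairs was not tested. Keratin UMIs summed to 401 CPM in the cDC1 of 2FF with anti-PD-L1, and without cells holding markers of another lineage Mgat4b was at 10.8 CPM there (7 UMIs).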

How the results depend on the processing

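Of the 47 class calls, 45 to 47 were kept under each of size factors of the RLE method, DESeq2, no filter, a gate lead of 2 markers, no second lineage, a mitochondrial limit of 10%, the deepest 5% of cells left out and each library left out, with 46 to 49 calls in all when 1 library was left out. Totals alone kept 42, with Mgat5 reversed to 0.023 in CD4 T cells and -0.036 in neutrophils. This scaling, the removal of other T cells (41 of 42 kept), the Gpnmb split, the wider keratin gate and the non-cycling comparison were chosen after seeing the data. Without the replicate block 46 class calls were kept, and the cycling contrast fell from 4 calls to 1, as it did to 2 under DESeq2 and without the filter, and to between 2 and 4 with 1 library left out. The block changed no other call apart from these and Mgat5 in CD4 T cells (-0.20). The Mgat5 call in CD4 T cells was also lost under RLE and most gates. Mgat2 in cDC1 was lost without 2DG (0.18), and Mgat1 in mature dendritic cells without 2FF (-0.25), without anti-PD-L1 (-0.24) and with no second lineage (-0.29). Among the treatment counts, no minimum of UMIs gave 18 in place of 11 for 2FF over control (29.0% against 17.4% of all genes). It gave 7 in place of 3 for 2DG with anti-PD-L1 over 2DG (10.3% against 9.93%). A gate lead of 2 gave 4 in place of 9 for 2FF added to anti-PD-L1, 1 in place of 3 for 2DG with anti-PD-L1 over 2DG and 3 in place of 7 for 2FF with anti-PD-L1 over 2FF, and no second lineage also 3 for the last. The mean of single-cell CPM reversed Mgat2 in B cells of 2FF over control (-0.55, main 0.74). In cDC1, Mgat5 of 2FF with anti-PD-L1 reversed over anti-PD-L1 (-0.15 with no second lineage, -0.0088 by single-cell means) and over 2FF (-0.16 and -0.074), and Mgat4a over anti-PD-L1 (-0.21 with no second lineage). Apart from the shifts of scaling and the removed cells, the cause was not tested. Contrasts of cycling tumor cells and of macrophages with Spp1 and Gpnmb could not be fitted, as too few cells were found. With no second lineage Mgat5 in Treg was at -1.34 for 2FF over control, and by single-cell means Mgat4a in CD8 T cells at -1.13. Low counts limit Mgat3, Mgat4b and the small classes.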
